A study of Mus musculus with 15 samples.

Results

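Exc_1 is a cluster of 539 excitatory neurons of the mouse prefrontal cortex (PFC), taken here as every cell to which the authors' annotation gives the name Exc_1 at its finer level of clustering. These cells were 539 of 35360 annotated cells and of 20377 cells in the 26 excitatory clusters of that level. In the whole series, PFC tissue of male C57BL/6N mice was dissociated, and the transcripts of single cells were counted by unique molecular identifiers (UMIs) after capture in droplets (10x Chromium), with the tissue of 2 mice pooled for a library. The 3 P21 libraries came from mice of 3 weeks, with no treatment named in the labels. The 12 P60 libraries came from mice of 8 to 10 weeks that self-administered cocaine or saline through an intravenous line. There were 2 libraries per agent from the end of maintenance, 2 per agent after 48 h of withdrawal and 2 per agent after 15 days of withdrawal, so that every P60 animal, saline animals included, had gone through the self-administration procedure and no P21 animal had.

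Neurons of cortical layers 2 and 3 send most of their axons to other cortical areas and to the opposite hemisphere, and they carry information within the cortex rather than out of it. Cux2, a homeodomain transcription factor that shapes the dendrites and spines of upper-layer neurons, and Calb1 (calbindin), a cytosolic calcium buffer, are known markers of these layers, by which Exc_1 is described here. The annotation itself gives no layer. In the weeks between weaning and adulthood, cortical neurons finish axon and dendrite growth, prune and stabilise synapses, and change the calcium buffers and channels that set their firing.

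The libraries are the replicates, and each value below is the level of a gene in the summed Exc_1 cells of 1 library, as UMIs per 1000000 UMIs (CPM) of the genes left once mitochondrial and ribosomal protein genes were removed. P60 libraries held 10 to 111 Exc_1 cells, except P60 library 3 (saline, maintenance), which held 8 and was left out of the levels and the tests across genes but kept in the comparison of shares and depth. The P21 libraries held 42, 18 and 32. The summed UMIs used ranged from 98488 in P60 library 1 to 1118985 in P60 library 11 and from 106629 to 342630 in the P21 libraries, so 3 UMIs correspond to 2.68 to 30.5 CPM depending on the library. The broad class in the same annotation was excitatory neuron for 533 of the 539 cells, and 5 of the 92 P21 cells were classed as astrocyte (1), endothelial (2) or microglia (2). Of the 539 barcodes, 18 also occurred in another library, none of them as Exc_1 in both, and 747 barcodes were shared between libraries in the whole series.

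Both layer markers were present in Exc_1, and each reached a higher mean in at least 1 other cluster. Cux2 stood at 119.8 ± 28.2 CPM in the 11 P60 libraries (SD, lowest 71.1, median 126, highest 155). It was higher in Exc_6 (238 ± 45.6) without overlap of the libraries, whereas Exc_3 (224), Exc_2 (152) and Exc_9 (127) overlapped with Exc_1. Calb1 stood at 316 ± 89.8 CPM (lowest 216, median 295, highest 489), between 321 in Exc_5 and 293 in Exc_3, and Exc_4 held the highest mean with 327. In Exc_6 it stood at 17.3 CPM, without overlap with Exc_1. The neighbours of Exc_1 in the order of Calb1 differed by less than the spread between libraries. Calb1 lies at chr4:15808411-15835211 on the plus strand of mm9, and Cux2 at chr5:122308396-122500111 on the minus strand, where it shares its place with a second listed gene of the same symbol and with Gm15637 on the other strand.

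In single cells, a Cux2 UMI was found in 65.1% of the 447 P60 Exc_1 cells (95% Wilson interval 60.6 to 69.4) and a Calb1 UMI in 88.6% (85.3 to 91.2), at a median of 11591 UMIs per cell. After every cell was thinned to 2000 UMIs the shares were 19.7% and 42.3%. Oligodendrocytes, which should lack both genes, gave 6.07% and 2.07% at a median of 3630 UMIs, and 2.4% and 1% after the same thinning. Both genes were seen together in 263 cells (58.8%), Calb1 alone in 133, Cux2 alone in 28 and neither in 23. Such intervals cover counting error only.

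The other layer 2/3 genes gave a mixed picture. Rasgrf2, an exchange factor for Ras known from upper-layer neurons, had its highest mean of all 26 clusters in Exc_1 (217 ± 39.7 CPM), above Exc_3 in 8 of 11 libraries. Otof, a calcium sensor of the otoferlin family, was low (5.59 CPM against 47.9 in Exc_4), and Wfs1, an endoplasmic reticulum membrane protein, stood at 80.1 CPM against 373 in Exc_2. Inhba, the inhibin beta A subunit that forms activin A, reached 62.2 CPM against 179 in Exc_2.

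Several markers of other layers and cells were low. The layer 5 gene Etv1 stood at 15.8 CPM (705 in Exc_21), Fezf2, which specifies subcortically projecting neurons, at 1.8, and the layer 6 genes Foxp2 and Syt6 at 0.669 and 0. The GABA-synthesising enzymes Gad1 and Gad2 were at 0.977 and 1.22 CPM. Others were higher, such as Mbp (myelin basic protein, 71.5 ± 16.3 CPM), Aldoc (an aldolase of astrocytes, 54.5 ± 22.1 CPM) and the layer 5 factor Pou3f1 (18.1 ± 11 CPM), for which Exc_1 had rank 2 of the clusters after Exc_26 (91.2). The neuronal SNARE gene Snap25 stood at 6131 ± 300.5 CPM, while Slc17a7, the vesicular glutamate transporter VGLUT1, was at 321 ± 89.1 and ranked 22 of the 26 clusters. Neurod6, a transcription factor of excitatory neurons, was low in rank as well (211 ± 34.9 CPM, rank 23, against 772 in Exc_24).

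Exc_1 was marked by few genes of its own. The clusters were made from these same counts, so the following values are a description without a test. Of 6053 genes with at least 20 CPM in Exc_1 at P60, 295 had a higher mean there than in each of the other 25 clusters, 5 by at least 1.5-fold and 2 by at least 2-fold. Exc_1 had rank 10 of the 26 clusters by the number of genes 1.5-fold above every other cluster, for which the median over clusters was 2.5 and the highest, in Exc_21, 156.

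Tmem215, a transmembrane protein, was the most selective gene, with 67.8 ± 22.3 CPM (lowest 41.8, median 71.5, highest 106) against 17.5 ± 9.96 in Exc_5, the next cluster. All 11 libraries lay above Exc_5 of the same library, and the ratio of means was 3.72. The highest library of Exc_9 (44 CPM) overlapped with the lowest of Exc_1. A Tmem215 UMI was found in 44.7% of P60 Exc_1 cells and in 13.06% of Exc_5, 13.6% of Exc_9 and 10.5% of Exc_2 cells. After thinning to 2000 UMIs per cell the shares were 10.1%, 1.87%, 3.06% and 2.56%. Oligodendrocytes gave 0.133% before thinning and 0% after it. The gene spans chr4:40419213-40424201 on the plus strand. Fam101b (also called Rflnb, a filamin-binding regulator) followed with 24.8 ± 7.12 CPM, 2.27 times Exc_5 and higher in 11 of 11 libraries.

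The next genes were shared more widely. Lamp5, listed under its older symbol 6330527O06Rik, encodes a lysosome-associated membrane protein of neurons and reached 704 ± 91.4 CPM (lowest 566, median 702, highest 841). Exc_5 followed with 476 ± 84.3 and was lower in 11 of 11 libraries. Penk, the precursor of the opioid enkephalin peptides, reached 286 ± 62.3 CPM (lowest 142, median 289, highest 367) against 202 ± 69.4 in Exc_2, again with 11 of 11 libraries above, and Exc_13 followed with 193 ± 61.5. All 3 overlapped over the libraries. Penk was low in Exc_5 and Exc_9, at 27.5 and 3.57 CPM. A Penk UMI was found in 63.8%, 61.2%, 13.4% and 3.53% of the cells of Exc_1, Exc_2, Exc_5 and Exc_9. After thinning to 2000 UMIs per cell the shares were 35.3%, 26.5%, 4.85% and 0.235%. Oligodendrocytes gave 0.933% before thinning and 0.533% after it.

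Pcp4l1, a small calmodulin-regulating protein related to PEP-19, stood at 73 ± 47.2 CPM (lowest 30.5, median 57.2, highest 206) against 46.9 in Exc_2. Only 8 of 11 libraries lay above Exc_2, and the highest value was that of P60 library 6. Steap2, Rpp25, Pcdh11x, Baalc, Shroom2, Akap17b and Vamp1 completed the 12 genes with the highest ratios (up to 1.6), and the first gene outside them was Unc5d with 1.39. Of the 12, 7 also had their highest mean in Exc_1 in the P21 libraries. Tmem215 was among these (74.1 CPM, next 35.9 in Exc_9), as was Lamp5 (536, next 475 in Exc_9). Pcp4l1 (3.78 CPM, rank 18) and Penk (221, rank 3, with 384 in Exc_2) were not.

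Genes with their lowest mean in Exc_1 were fewer. Of 4467 genes with at least 20 CPM in all other clusters, 206 were lowest in Exc_1, 1 of them by over 1.5-fold. That gene was Slc35f1, a member of a solute carrier family, with 9.13 ± 7.63 CPM against 22.1 in Exc_2, the lowest of the others. Exc_1 was below Exc_2 in 10 of 11 libraries, but held only 0 to 10 Slc35f1 UMIs per library. Lsamp, a cell adhesion molecule of limbic neurons, was below the lowest other cluster by less than 1.5-fold. It stood at 63.8 ± 22.5 CPM against 151 to 181 in Exc_5, Exc_2 and Exc_9. Over 9706 genes the profile of Exc_1 correlated most closely with those of Exc_5 (Pearson r of 0.976 across genes, which are not independent replicates), Exc_9 (0.975) and Exc_2 (0.975), and these 3 serve as the near clusters in the comparisons that follow.

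**Figure D1:**
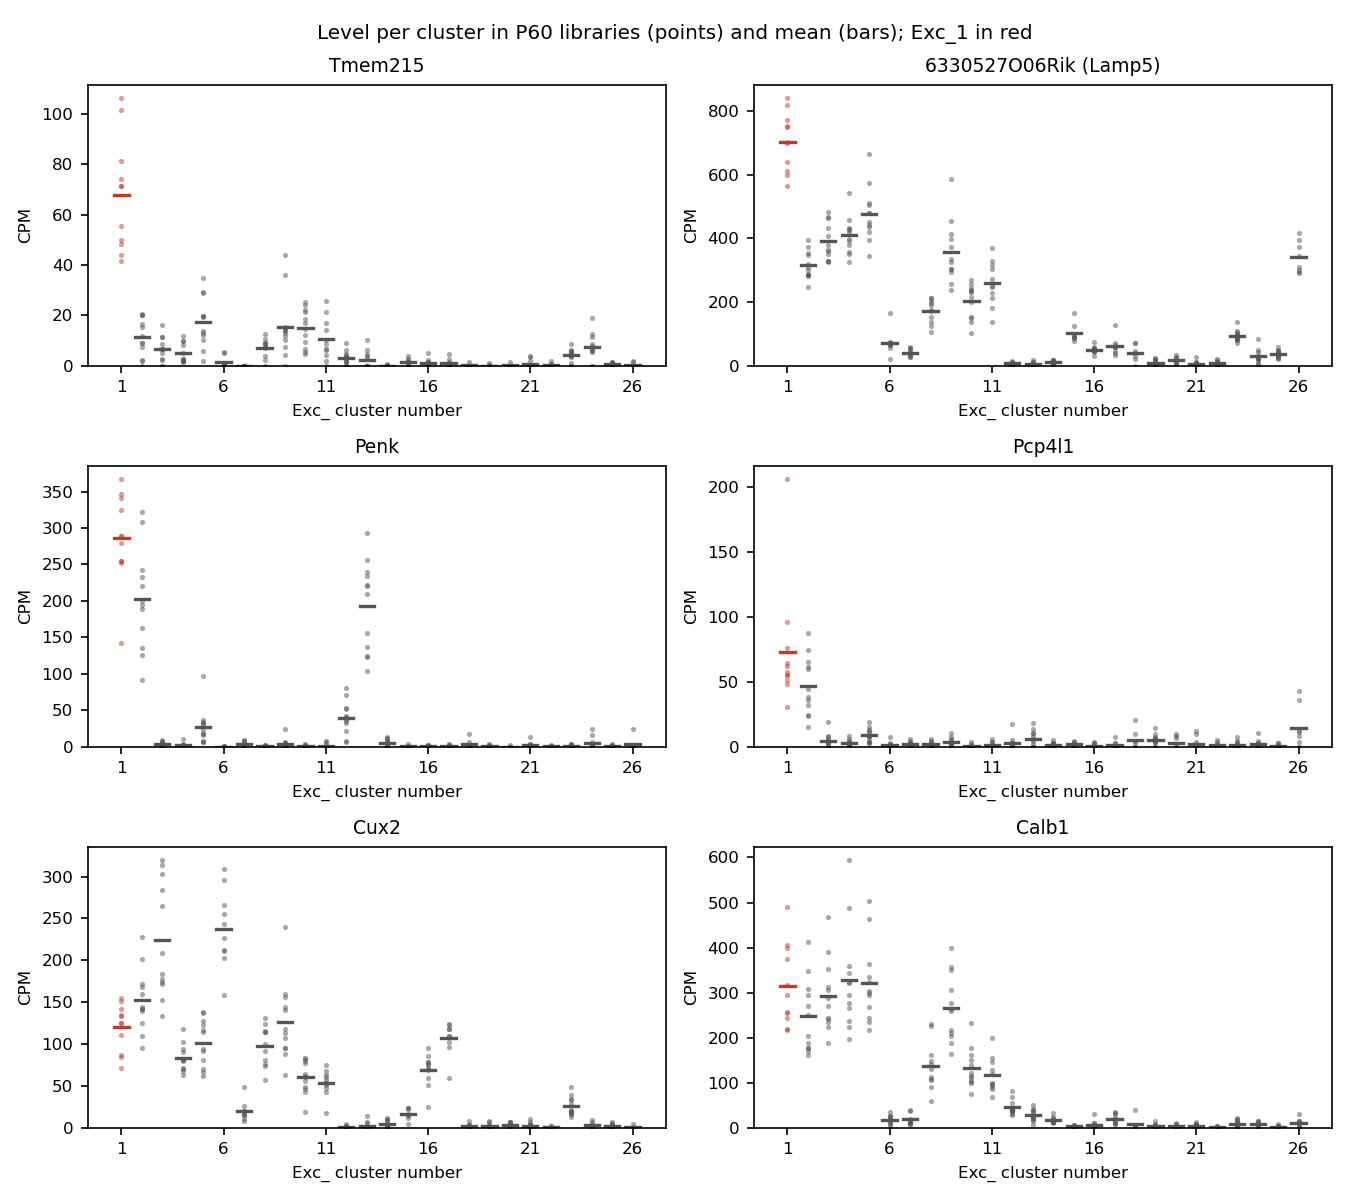
Level (CPM, linear axis) of 6 genes in each of the 26 excitatory clusters, with 1 point per P60 library of at least 10 cells, the mean as a bar and Exc_1 in red. Tmem215 has its highest mean in Exc_1 (67.8 against 17.5 CPM in the next cluster), with overlap only from a library of Exc_9 (44 CPM), Penk is also high in Exc_2 and Exc_13 (286, 202 and 193), and Cux2 and Calb1 reach like or higher levels in other clusters.

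Exc_1 made up a small and variable share of the excitatory neurons. The share was 1.69%, 1.16% and 1.68% in the P21 libraries and 4.06% ± 2.18 (SD, n = 6) in P60 saline libraries, where it ran from 1.26% to 7.48%. The groups overlapped, and the difference did not pass an exact two-sided permutation test (p = 0.0833, adjusted p = 0.167 over 8 tests, smallest possible p 0.0119). Cocaine libraries held 2.46% ± 1.31 (n = 6), and the exact permutation test within time points gave p = 0.241 (adjusted p = 0.321).

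The P21 cells were shallower than the P60 cells. The median UMIs per Exc_1 cell were 6026 to 8136 in the P21 libraries and 10616 to 14289 in the saline libraries, without overlap (exact permutation p = 0.0119, the smallest possible, adjusted p = 0.0317). Median genes per cell (2768 ± 321 and 3812 ± 161) and the percent of UMIs from mitochondrial genes (4.11 ± 0.881 and 2.57 ± 0.305) were separated likewise, with the same exact permutation p. Cocaine and saline libraries did not separate in any of these measures (exact permutation p between 0.176 and 0.889).

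**Figure D2:**
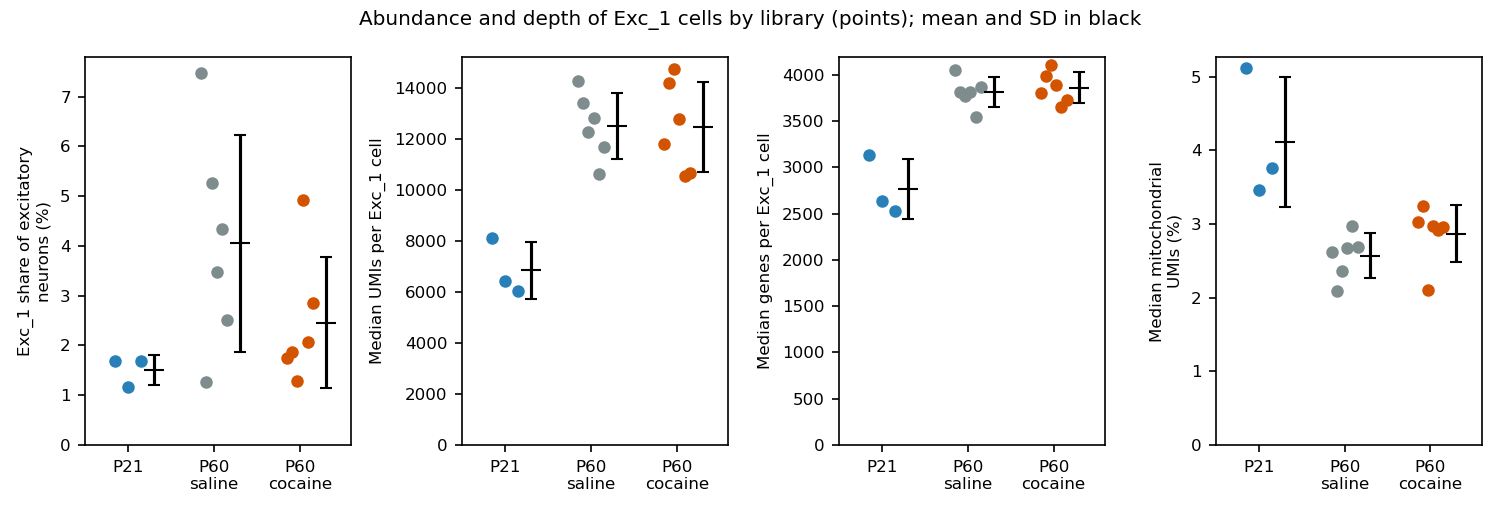
Share of Exc_1 among excitatory neurons (percent), median UMIs and genes per Exc_1 cell and median percent of mitochondrial UMIs for each library (points), with the mean and SD of the P21, P60 saline and P60 cocaine groups in black. The P21 libraries sit at 6026 to 8136 UMIs, below all P60 libraries, while their shares of 1.16% to 1.69% overlap with those of the P60 groups.

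The comparison of P60 saline with P21 libraries asks how the transcriptome of these neurons differed between adolescence and adulthood. The authors gave the P21 cells their cluster names by likeness to the P60 clusters, so the genes that define Exc_1 entered the choice of P21 cells. From the 3 P21 to the 5 adult saline libraries, 7 of 10 tested immediate early genes, 10 of 24 axon growth genes and Calb1 fell, and Snap25, 4 of 17 chaperones and 10 of 75 respiratory chain subunits rose. Of 5799 genes tested by edgeR's quasi-likelihood test, 326 rose (5.62%) and 441 fell (7.6%) with age by over 1.5-fold at a Benjamini-Hochberg adjusted p under 0.05, together 13.2%, and 28.8% had an unadjusted p under 0.05. The libraries of the age groups did not overlap for 20.9% of the tested genes (9.4% higher in adult libraries, 11.5% lower). The median log2 fold change over all tested genes was -0.01. Leaving out P21 library 1 reduced the 767 calls to 428. The methods name fewer P21 mice than separate pools for every library would need, so P21 libraries may share animals, and p-values may then be too small. Summing P21 libraries 2 and 3 as 1, added after seeing the data, gave 785 calls. With the 2 saline libraries of 15 days as the adult group there were 153 calls, and 35 of 67 tested genes named here stayed called. With the summed level of a gene group in non-excitatory cells (described with the cocaine results) as a covariate there were 46, and of 70 named genes 10 stayed called, namely Marcksl1, Nnat, Nr4a1, Hsp90aa1, Snap25, Pcp4l1, Tnnt2, Gstt1, Ptgds and Hist1h2bc. Calb1, the other named immediate early genes and the named respiratory chain genes lost the call with it, 54 kept their direction without a call, and 6 genes, Bsg and Uqcrfs1 among them, turned in sign. The covariate ran from 7578 to 13317 CPM in P21 and from 3540.2 to 6579 CPM in saline libraries, without overlap, so it cannot be told apart from age in this fit.

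The summed endothelial and layer 6 markers did not overlap between the age groups. Those of haemoglobin, microglia, astrocytes, inhibitory neurons, oligodendrocyte precursors and layer 5 did. In Exc_1 cells the 10 layer 6 markers summed to 56.3 to 79.3 CPM in P21 libraries and to 9.67 to 45.6 CPM in saline libraries. The 10 layer 5 markers summed to 143 to 263 and 51.5 to 159 CPM. Haemoglobin genes summed to 216 to 6897 CPM in the Exc_1 cells of P21 libraries and to 84.8 to 407 CPM in those of saline libraries. The 8 endothelial markers summed to 805 to 1369 and 494 to 764 CPM, with Cldn5 at 41.9 and Flt1 at 28.4 CPM in P21 and 1.14 and 1.1 in P60 libraries. The 8 microglia markers summed to 22.7 to 359 and 23.3 to 67 CPM, and C1qa was at 99.2 CPM in P21 library 1, at 0 and 11.3 in the other P21 libraries and at 5.88 on average in P60 libraries. The 8 astrocyte markers summed to 346 to 735 and 238 to 450.4 CPM. The 10 inhibitory markers summed to 37.9 to 65.6 and 3.22 to 50.05 CPM, with Gad1 and Gad2 at 6.96 and 11.3 CPM in P21 and 0.977 and 1.22 in P60 libraries and Lhx6 at 0 in every library. The 6 oligodendrocyte precursor markers summed to 0 to 5.84 CPM in P21 and 0 to 3.57 CPM in saline libraries (means 1.95 and 1.14). Of these, Pdgfra and Cspg4 were at 0 in the P21 libraries and averaged 0.244 and 0.626 CPM in P60 libraries. The part of these transcripts, of the lower depth of P21 cells and of the self-administration procedure in the age difference was not tested, and age and procedure cannot be told apart.

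The largest fall was that of Marcksl1. This gene, an actin-regulating substrate of protein kinase C at growth cones (chr4:129190825-129193229, plus strand), stood at 181, 197 and 255 CPM in the P21 libraries. In the adult saline libraries it was at 0, 0, 1.79, 2.12 and 4.79 CPM, that is 128 UMIs in the P21 cells and 5 in the saline cells. The groups were far apart, and the change was -6.60 ± 0.38 (log2, SE; adjusted p = 8.87e-16 by edgeR).

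Sparc, a secreted matrix protein that modulates synapse formation (chr11:55208002-55233582, minus strand), was at 84.6, 37.5 and 51 CPM in P21 and at 0 to 4.79 CPM in saline libraries (log2 change -4.69, adjusted p = 8.9e-08). Nnat (neuronatin), an imprinted gene expressed in developing brain, was at 40.9, 84.4 and 125 CPM and at 0 to 8.04 CPM (-3.80, adjusted p = 1.59e-06). Nnat (chr2:157385814-157388258, plus strand) overlaps Blcap on the other strand. Pdyn, the precursor of the dynorphin opioid peptides (chr2:129512301-129525580, minus strand), was at 40.9, 28.1 and 45.3 CPM and at 0 to 9.63 CPM (-3.45, adjusted p = 8.72e-05). All of these were without overlap between P21 and saline libraries. Nrip3, Ccdc85b, Hist1h2bc, Insig1 and Itm2a completed the 10 largest falls, with log2 changes between -3.09 and -2.52, and Ier2 is described below.

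Of 24 tested genes of axon growth and immature neurons, 10 fell and none rose, with a list median of -0.53, where 7.6% of all tested genes fell. Besides Marcksl1 and Nnat they included Fscn1 (fascin, an actin-bundling protein of filopodia), which went from 306, 178 and 204 CPM to 74.6 to 91 CPM (-1.49). D0H4S114 (the gene for P311) fell by 1.66, Marcks by 1.18, Crmp1 (a collapsin response mediator) by 1.03 and Dclk1 (doublecortin-like kinase) by 0.93 on the log2 scale. The microtubule and actin genes Dpysl2, Dbn1 and Tubb2a also fell.

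The immediate early genes, which neurons transcribe within minutes of activity, had 10 of 10 fitted changes below 0. Of 10 tested, 7 fell and none rose, with a list median of -1.61, where 7.6% of all tested genes fell. Fos stood at 187, 234 and 340.0 CPM in P21 libraries and at 17 to 101 CPM in saline libraries (-2.19). Junb, a partner of Fos in the AP-1 complex, stood at 277, 216 and 204 CPM and at 27.5 to 91.5 CPM (-2.30). Nr4a1, an orphan nuclear receptor, stood at 123, 159 and 130.3 CPM and at 23.3 to 40.9 CPM (-2.20). No saline library reached the lowest P21 library for these genes. Ier2 (-3.75), Btg2 (-1.90), Jund and Egr1 (-0.86) were the other members that fell. With only cells classed as excitatory neurons, 6 of the 10 fell.

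Most of these genes are known targets of CREB, which binds the cAMP response element, and the letters upstream of their start sites are shown for that reason. Of the 7 members that fell, 5 had an entry in the RefSeq promoter table (GRCm38.p6), and the 4 of them with the largest changes are printed as the 250 bases before the start, with TGACG or its reverse complement CGTCA in capitals. The window of Junb is chr8:84978749-84978998 on the minus strand, that of Nr4a1 chr15:101266596-101266845 on the plus strand, that of Fos chr12:85473640-85473889 on the plus strand and that of Btg2 chr1:134079156-134079405 on the minus strand.
Junb: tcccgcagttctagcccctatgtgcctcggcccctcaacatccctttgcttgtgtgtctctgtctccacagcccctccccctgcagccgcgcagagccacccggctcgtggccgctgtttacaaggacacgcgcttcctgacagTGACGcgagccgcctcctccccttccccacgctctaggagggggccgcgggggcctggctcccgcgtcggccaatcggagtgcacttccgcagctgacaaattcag
Nr4a1: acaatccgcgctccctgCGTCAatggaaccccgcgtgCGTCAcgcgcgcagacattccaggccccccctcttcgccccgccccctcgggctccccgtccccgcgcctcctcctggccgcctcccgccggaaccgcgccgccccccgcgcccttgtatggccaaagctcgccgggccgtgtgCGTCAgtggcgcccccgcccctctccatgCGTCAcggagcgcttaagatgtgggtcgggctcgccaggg
Fos: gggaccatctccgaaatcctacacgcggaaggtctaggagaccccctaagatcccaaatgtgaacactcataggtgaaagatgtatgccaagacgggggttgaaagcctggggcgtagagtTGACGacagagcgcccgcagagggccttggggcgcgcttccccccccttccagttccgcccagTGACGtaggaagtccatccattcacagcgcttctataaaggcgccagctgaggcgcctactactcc
Btg2: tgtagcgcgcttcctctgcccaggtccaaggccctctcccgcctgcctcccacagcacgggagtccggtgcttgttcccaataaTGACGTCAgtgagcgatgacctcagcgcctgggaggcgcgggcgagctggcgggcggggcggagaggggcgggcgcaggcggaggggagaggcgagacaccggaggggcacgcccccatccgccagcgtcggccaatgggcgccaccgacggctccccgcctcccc
On both strands, these letters were found 1 time in the Junb window, 4 times in that of Nr4a1, 2 times in that of Fos and 2 times in that of Btg2, where the matches overlap in the full element TGACGTCA. Jund, the other member with an entry, had none. Of all 32851 promoters in the table, 17.8% held TGACG in a window of the same length and 1.55% the full element. The CArG box, the site of serum response factor, was found in none of the 5 windows and in 1.47% of all. Letters further than 250 bases upstream were not searched, nor were those of Ier2 and Egr1, which had no entry. A match describes the letters and is not a binding site.

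Among the rises, Pcp4l1 had the largest change. It was at 0, 0 and 11.3 CPM in P21 and at 48.3, 55.4, 57.2, 64.3 and 62.2 CPM in saline libraries (log2 change 4.09 ± 0.61, adjusted p = 1.59e-05). The P21 cells held 2 UMIs of it and the saline cells 163, a ratio of 18.6 with a 95% counting interval of 5.08 to 155. Tnnt2 (cardiac troponin T), at 0 to 9.38 and 41.9 to 82.6 CPM, changed by 3.63 (3 and 169 UMIs, ratio 12.9, interval 4.34 to 63.1). Gstt1, a glutathione transferase, at 2.92 to 9.38 and 35.4 to 74.2 CPM, changed by 3.63 as well (3 and 175 UMIs, ratio 13.3, interval 4.49 to 65.4). Rgs14, a regulator of G-protein signalling known for limiting plasticity in hippocampal area CA2, rose from 18.3 ± 16.9 to 81.7 ± 17.9 CPM (2.44, adjusted p = 0.000173). The other large rises were Ass1 (2 and 80 UMIs, ratio 9.15, interval 2.45 to 76.9), Zfp68 (3 and 75 UMIs, ratio 5.72, interval 1.88 to 28.4), Sf3b4, Ptgds, Gucy2g and Fhad1. Their log2 changes lay between 2.18 and 3.06.

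Of the genes that mark the cluster, Calb1 stood at 482, 628 and 431 CPM in P21 and 216 to 373 CPM in saline libraries (-0.84, adjusted p = 0.00176), without overlap. Cux2 stood at 201, 150.1 and 170.0 and at 84.2 to 141 CPM (-0.64, adjusted p = 0.0386), also without overlap. Rasgrf2 went the other way, from 149, 141 and 125 to 173 to 263 CPM (0.66, adjusted p = 0.0276). The remaining 6 tested layer 2/3 genes did not pass. Lamp5 had a log2 difference of 0.50 (adjusted p = 0.0314, under the fold threshold). Penk, at 0.47 (adjusted p = 0.0707), and Tmem215, at 0.20 (adjusted p = 0.684), did not pass in the edgeR test.

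**Figure D3:**
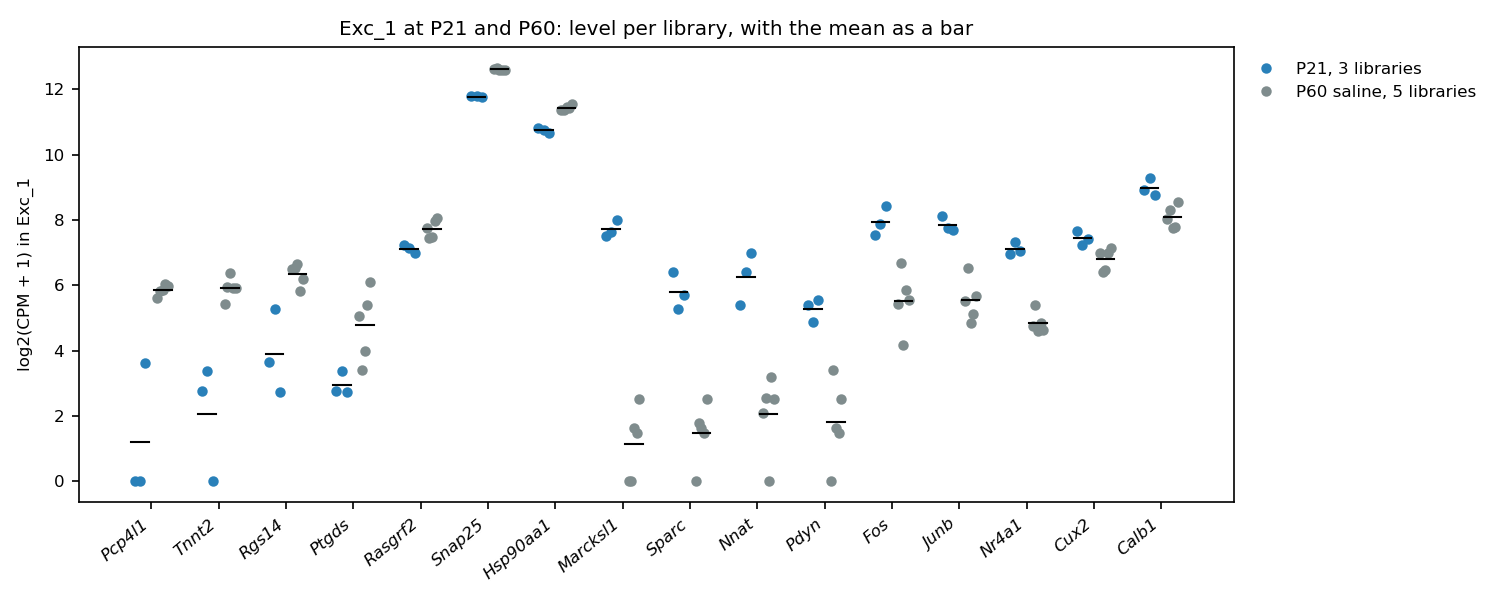
Level in Exc_1 as log2(CPM + 1) of 16 genes in the 3 P21 and 5 P60 saline libraries, 1 point per library, with the mean as a bar. Pcp4l1, Tnnt2, Rgs14 and Snap25 lie higher in every adult library than in any P21 library, and Marcksl1, Sparc, Pdyn and Fos lower.

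Most genes of the synaptic lists did not pass, and over all tested genes 7.6% fell and 5.62% rose. Snap25 stood at 3561, 3536 and 3440.1 CPM in P21 libraries and at 6188 to 6477 CPM in saline libraries, and its change was 0.88 ± 0.14 (adjusted p = 3.11e-05). It was the only one of 26 tested vesicle release genes that rose; Unc13a (-0.75), which primes vesicles, and Syn1 (-0.68), which tethers them, fell, and 23 did not pass (list median -0.20). Of 27 synaptic adhesion genes, Cadm1, Ncam1 (-1.01) and Lphn1 fell and none rose. Ncam1, the neural cell adhesion molecule, went from 339, 450.2 and 431 CPM to 168 to 237 CPM. Of 18 postsynaptic density genes, Dlg3 (SAP102), Lrrc7 and Ppp3r1 fell and none rose. With the covariate, the differences of Lphn1 (0.15) and Lrrc7 (0.25) turned in sign and did not pass.

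Receptors and channels mostly did not pass. Grin1, the obligatory NMDA receptor subunit (-0.81), Grm5, a group I metabotropic receptor (-0.61), and Gabrg3, the gamma3 subunit of the GABA-A receptor (-2.42), fell. They were 1 of 7 ionotropic glutamate, 1 of 3 metabotropic and 1 of 10 GABA-A genes tested, where 7.6% of all tested genes fell and 5.62% rose. With the covariate, the differences of Grin1 (0.30) and Grm5 (0.018) turned in sign and did not pass. Gabrg3 stood at 32.1, 46.9 and 51 CPM in P21 and at 2.41 to 12 CPM in saline libraries. Npy1r, a receptor for neuropeptide Y, stood at 26.3, 9.38 and 17 CPM in P21 and at 55.1 to 69.8 CPM in saline libraries and rose by 1.6 (1 of 4 receptors tested). Kcnv1, a silent potassium channel subunit, was the only one of 27 potassium channel genes to pass (0.69). Cacna2d1, the alpha2delta1 subunit of calcium channels, was the only one of 15 sodium and calcium channel genes (-0.64).

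Of 75 nuclear genes of the respiratory chain, 10 rose and 3 fell, with a list median of 0.28, where 5.62% of all tested genes rose and 7.6% fell. Ndufa9, a complex I subunit, stood at 93.4, 93.8 and 159 CPM in P21 and at 220.3 to 264 CPM in saline libraries (1.09). Ndufv1, the flavoprotein of complex I, stood at 146, 244 and 221 CPM and at 330.4 to 405 CPM (0.96). The 3 that fell were Cox5a (-2.24), Uqcrfs1 (-1.66) and Cyc1 (-1.58). Cox5a and Cyc1 were high in P21 library 1 (1141 and 289 CPM) and, among saline libraries, in P60 library 12 (366 and 136 CPM). With the 2 saline libraries of 15 days as the only adult group, 1 of the list rose, as did 62 of all 5631 tested genes.

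Chaperones made up a smaller group. Hsp90aa1, the inducible cytosolic HSP90, stood at 1801, 1735 and 1609.5 CPM in P21 and at 2616 to 2976 CPM in saline libraries (0.72). Hspa8, the constitutive HSC70 that uncoats clathrin vesicles, stood at 1891, 1829 and 1751 CPM and at 2325 to 3273 CPM (0.66). With Hspd1 (0.59) and Hspa1a (1.59) these were 4 of 17 tested that rose, and none fell (list median 0.12; 5.62% of all tested genes rose). Hspa1a has a near-identical neighbour, Hspa1b, so its count is uncertain.

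Among 10 tested epigenetic regulators that the study named from these same samples, which makes the list no independent evidence, 2 rose and 4 fell, where 5.62% of all tested genes rose and 7.6% fell. Dnmt3a, a de novo DNA methyltransferase, stood at 178, 84.4 and 136 CPM in P21 and at 19.3 to 67.4 CPM in saline libraries (-1.62). Prmt1, the main arginine methyltransferase, stood at 134, 65.6 and 136 CPM and at 194 to 271 CPM (1.00). Yeats4 (-1.86), Mbd3 (-1.32) and Ube2d3 (-0.71) were the others that fell, and Hspa1a the other that rose. In cholesterol synthesis, Insig1 (-2.55), which holds back the SREBP pathway, and the synthesis enzyme Sqle (-1.18) fell. Of 11 tested genes of excitatory identity none passed (list median -0.31), and the 3 endothelial markers tested all fell (Itm2a, Ly6c1 and Bsg), which was 0 of them when only cells classed as excitatory neurons were summed.

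Several smaller lists had 1 or 2 members called, where 7.6% of all tested genes fell and 5.62% rose. Slc1a2, the glial glutamate transporter, fell (-0.99) among 3 astrocyte markers, and Ptgds, prostaglandin D synthase, rose (2.38, adjusted p = 0.0415) among 3 oligodendrocyte markers. Mtap2 (MAP2, -0.69) was the only one of 13 cytoskeletal genes, and Pdyn the only one of 9 neuropeptides. Rheb (-1.32), the activator of mTORC1, and Rgs4 (-0.69) fell among 16 activity-regulated genes. The layer 5 and layer 6 lists had 1 tested gene each, which did not pass, and no member of the layer 4/5, inhibitory, oligodendrocyte precursor and microglia lists had counts enough to be tested.

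Whether an age difference was larger in Exc_1 than in the near clusters was tested as a difference of differences, with the library as a block. Of 7157 genes, 57 rose more or fell less in Exc_1 than in the mean of Exc_5, Exc_9 and Exc_2 (0.796%), and 60 did the opposite (0.838%), in all 1.63%. Leaving out P21 library 1 gave 30 such calls. Within single clusters, the same test of age called 6.69% of tested genes in Exc_5 (2.24% rose, 4.45% fell), 9.75% in Exc_9 (3.83% and 5.92%) and 8.95% in Exc_2 (3.7% and 5.25%). Among genes that passed, the largest difference by fold was that of Pcp4l1, which rests on 2 UMIs in the P21 cells of Exc_1. It stood at 3.78 and 57.5 CPM in P21 and saline Exc_1 cells, at 14.5 and 54.9 in Exc_2, at 9.62 and 8.61 in Exc_5 and at 10.1 and 3.35 in Exc_9 (difference of log2 changes 4.04, adjusted p = 0.000568).

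The opioid peptide genes both differed. Penk was 221 and 301 CPM in P21 and saline Exc_1 cells, 384 and 227 in Exc_2, 35.1 and 38.6 in Exc_5 and 42 and 5.84 in Exc_9. The difference from the near clusters was 1.88 (adjusted p = 0.049), and the log2 change in Exc_9 alone was -3.38. Pdyn was lower in adult cells of all 4 clusters, going from 38.1 to 3.66 CPM in Exc_1, from 30.2 to 6.51 in Exc_9, from 113 to 48 in Exc_2 and from 57 to 31.6 in Exc_5. The difference from their mean was -1.89, and the log2 change in Exc_9 alone was -2.38. Lamp5 went from 536 to 735 CPM in Exc_1, from 446 to 529 in Exc_5, from 475 to 410.5 in Exc_9 and from 458 to 327 in Exc_2 (difference 0.69).

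Of 26 vesicle release genes, 3 had a more negative age difference in Exc_1 than in the near clusters (0.838% of all tested genes did), and so did 1 of 28 adhesion genes and 0 of 18 postsynaptic density genes. Syp (synaptophysin) was 482 and 319 CPM in P21 and saline Exc_1 cells, and 272 and 364 in Exc_5, 215 and 319 in Exc_9 and 241 and 376 in Exc_2 (difference -1.07). Slc17a7 was 518 and 316 CPM in Exc_1, with the near clusters at 301 to 351 and 346 to 391 (difference -0.82). Syn2 (-0.63) and Lsamp (-1.17) showed the same order. Within Exc_1 alone, Slc17a7, Syp and Lsamp did not pass the edgeR test (adjusted p = 0.0672, 0.0598 and 0.0865). Syn2 was under the fold threshold there (adjusted p = 0.0427). The rises of Slc17a7, Syn2 and Lsamp did not pass in any near cluster. In Exc_1 the P21 values of Slc17a7 were 785, 450.2 and 317 CPM and those of Syp 768, 356 and 323 CPM, so P21 library 1 was the highest of the 3 for both.

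Of 17 chaperones 1 (Hspa8), of 75 respiratory chain genes 2 (Ndufa9 and Atp5c1) and of 26 axon growth genes 3 (Tuba1a, Fez1 and Tubb3) rose more or fell less in Exc_1, as did 0.796% of all tested genes. Hspa8 went from 1824 to 2798 CPM in Exc_1 and from 2583 to 2514 in Exc_5, 2856 to 3045 in Exc_9 and 2648 to 2621 in Exc_2 (difference 0.63). Ndufa9 went from 115 to 239 CPM in Exc_1, whereas its P21 level was already 206 to 222 CPM in the near clusters (0.90). Tuba1a, the alpha-tubulin of young neurons, went from 1956 to 2056 CPM in Exc_1, but from 2784 to 1857 in Exc_2 (0.64). In Nr4a1 the difference was -1.20. For Marcksl1 (-1.55, adjusted p = 0.116), Cux2 (-0.34, adjusted p = 0.517) and Tmem215 (0.86, adjusted p = 0.144) it did not pass the edgeR test, and for Calb1 it was 0.47 (adjusted p = 0.021), under the fold threshold.

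**Figure D4:**
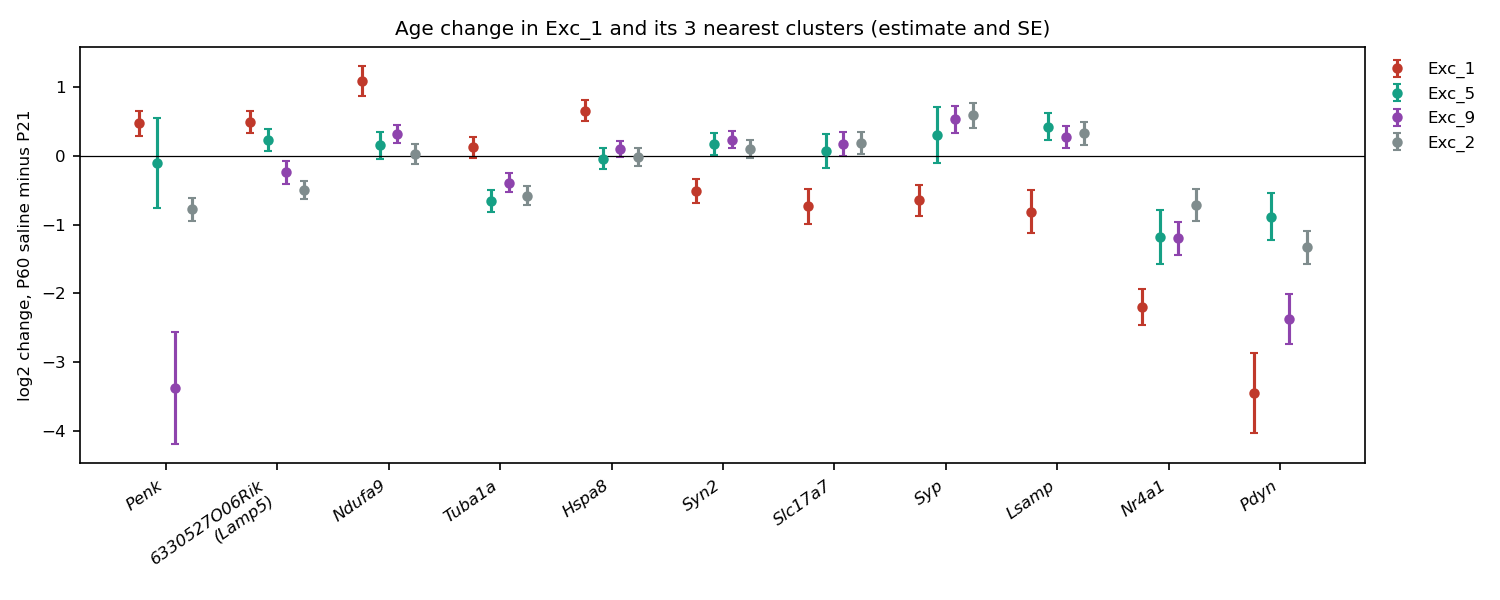
Fitted log2 change from P21 to P60 saline libraries (points, with the SE as bars) in Exc_1 and its 3 near clusters for 11 genes named in the text. Slc17a7, Syp, Syn2 and Lsamp lie below 0 in Exc_1, where none of them was called, and above 0 in the 3 near clusters. Penk lies lowest in Exc_9 (-3.38).

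The cocaine libraries were compared with the saline libraries of the same time point to see whether the drug and its withdrawal left a mark on these neurons. After 48 h of withdrawal 4 of 7450 genes rose and none fell in edgeR's quasi-likelihood test (0.0537%), with 444 genes (5.96%) at an unadjusted p under 0.05 and 0 genes called by DESeq2. Gpx3, an extracellular glutathione peroxidase (chr11:54715955-54723879, plus strand), stood at 36.1 and 33.9 CPM in the saline libraries and at 125 and 102 CPM in the cocaine libraries (1.58 ± 0.34, adjusted p = 0.0219). Actb (beta-actin) stood at 1559.6 and 1441 CPM and at 1914 and 2907 CPM (0.68, adjusted p = 0.0219). Paip1, which binds the poly(A)-binding protein, and the non-coding RNA gene 9530059O14Rik were the others, at 2.36 and 1.6. The groups did not overlap for any of the 4, nor did they for 31.7% of all tested genes. Each group mean rests on 2 libraries, and P60 library 6 held only 10 cells. The spread was shared over 11 libraries. Without P60 library 5 or 8 no gene was called.

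After 15 days of withdrawal 76 genes rose (1.02% of 7450) and 1 fell (0.0134%), together 1.03%, with 462 (6.2%) at an unadjusted p under 0.05. Cyc1 (cytochrome c1) stood at 69.7 and 136 CPM in the saline libraries and 260.3 and 243 CPM in the cocaine libraries (1.42 ± 0.21, adjusted p = 1.01e-06). Glrx2, a mitochondrial glutaredoxin, stood at 35.7 and 59.9 CPM and at 135 and 123 CPM (1.55, adjusted p = 1.13e-05). Nrgn (neurogranin), a calmodulin-binding protein of spines, stood at 1298 and 2078 CPM and at 3048 and 3137 CPM (0.87, adjusted p = 3.67e-05). In each of them P60 library 12 was the higher saline library and lay below both cocaine libraries, and 36% of all tested genes had no overlap of the groups. The largest rises were those of 2310047M10Rik (2.13), Mrps24 (2.01), Creg1 (2.01), Ccdc85b (1.96) and Rnf126 (1.94), and Cdh11, a cadherin, fell from 47.4 and 26.3 to 10.7 and 17.5 CPM (-1.48). Mrps24 shares its place and strand with Urgcp.

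The 76 genes were high together in other cells of the same libraries. They were chosen for being higher in Exc_1 of the 15 day cocaine libraries. The order of the 15 day groups in Exc_1 follows from that choice. In Exc_1 they summed to 18717 and 17790 CPM in the cocaine libraries, 7530 and 11629 CPM in the saline libraries of 15 days (P60 libraries 11 and 12) and 6669 to 9625 CPM in the 8 libraries of other time points. In the non-excitatory cells of the same libraries the sums were 10590 and 10058 CPM for cocaine and 4314 and 6579 CPM for saline, and 3360 to 4914 CPM in the 8 others. In Exc_1 of the P21 libraries the same genes summed to 22473, 14143 and 13007 CPM. The age comparison and the comparison of 15 days share the saline libraries 11 and 12. With the summed level in the non-excitatory cells as a covariate, an alternative added after seeing the data, the age calls numbered 46 and those of 15 days 0. This level did not overlap between the groups of either comparison and was summed from genes called at 15 days, so a lost call in these fits cannot be read as a weaker difference. What moved these genes together across cell types was not tested. Without P60 library 11 the calls of 15 days numbered 2, and without P60 library 12 they numbered 145.

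**Figure D5:**
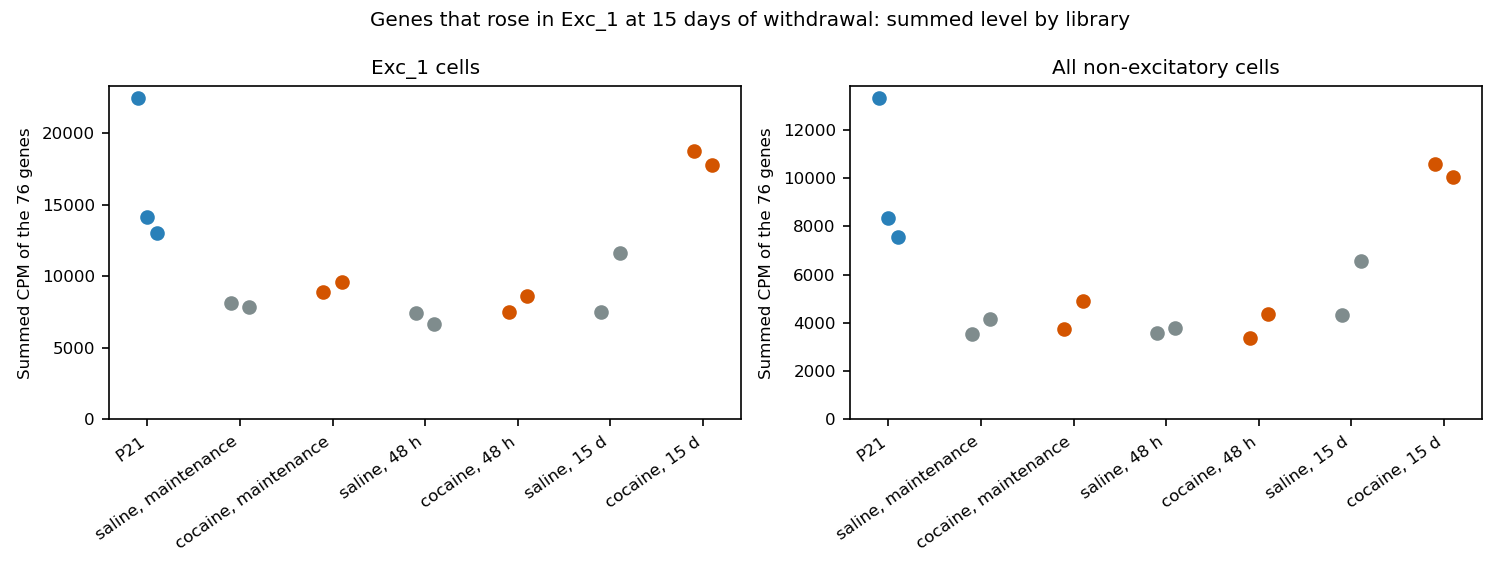
Summed level (CPM) of the 76 genes that rose in Exc_1 after 15 days of withdrawal, in Exc_1 cells (left) and in all non-excitatory cells (right), with 1 point per library by group. The 2 cocaine libraries of 15 days lie above all other P60 libraries in both panels (18717 and 17790 CPM in Exc_1), and the P21 libraries lie at 13007 to 22473 CPM in Exc_1. The genes were chosen by the 15 day difference in Exc_1, so the left panel is no test of that difference.

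Over both times of withdrawal, 19 genes rose (0.255% of 7450) and 1 fell (0.0134%), together 0.268%, with 574 (7.7%) at an unadjusted p under 0.05. Nnat averaged 4.41 CPM in the 4 saline libraries and 32.1 CPM in the 4 cocaine libraries (2.49, adjusted p = 0.0176), where P60 library 6 held 73.6 CPM and the others 14.3 to 20.5. Nnat had 0 UMIs in both maintenance cocaine libraries, its difference was -0.060 (adjusted p = 0.957 by edgeR) over 3 time points with a minimum of 8 cells, and DESeq2 did not call it. Ccnt2 (cyclin T2), a subunit of the elongation factor P-TEFb, rose from 125 to 199 CPM (0.66) and Sdf2l1, a protein of the endoplasmic reticulum, by 1.01. Hs3st1, a heparan sulphate sulphotransferase, fell from 82.2 to 39 CPM (-0.98). The number of calls was 3 without P60 library 11, 4 without library 8, 9 without library 7 and 64 without library 12.

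The changes at 15 days and 48 h were not shown to differ: 0 of 7450 genes passed the edgeR test of the difference, with 331 (4.44%) at an unadjusted p under 0.05 and 0 called by DESeq2. Without P60 library 12 there were 28 calls. Over all 11 P60 libraries, maintenance included, 0 of 6836 genes differed in cocaine response between Exc_1 and its near clusters. Of these genes 369 (5.4%) had an unadjusted p under 0.05. The response at 48 h or at 15 days alone was not tested against the near clusters. None of the 11 tested layer 2/3 genes and none of the 10 tested immediate early genes passed at 48 h (list medians -0.03 and -0.07) or at 15 days (-0.06 and 0.12). Among the 75 respiratory chain genes 1, Cyc1, rose at 15 days, where 1.02% of all tested genes did, and none fell. The fitted change was below 0 for 69 of the 75 at 15 days (list median -0.15, all tested genes -0.02). At 48 h none passed, and 62 of the 75 were below 0 (list median -0.16, all tested genes 0.008). The direction of the list as a set was not tested.

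At the end of maintenance only P60 library 2 had enough Exc_1 cells among the saline libraries, so the difference there is given by size. An edgeR test with the spread shared over all groups, added after seeing the data, called 0 genes, with 393 at an unadjusted p under 0.05, and with a minimum of 8 cells it called 0, with 384. Of 7450 genes, 1421 were higher (19.1%) and 1241 lower (16.7%) by over 1.5-fold in the 2 cocaine libraries, which held 10 and 13 cells. Cux2 stood at 126 CPM in the saline library and at 71.1 and 151 CPM in the cocaine libraries, and Calb1 at 258, 244 and 399 CPM. For both genes the cocaine libraries lay on either side of the saline library.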

How the data were processed

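UMI counts per gene and cell, and an annotation of the retained cells (library, cluster, broad class, fraction of mitochondrial UMIs), were deposited for PFC of P60 and P21 mice. The authors aligned reads to mm9 with Cell Ranger, removed putative doublets and low-quality cells, clustered P60 cells with Seurat (version 2.1.0 per the labels), and named P21 cells by correlation with the P60 clusters. The counts are as deposited, not normalized. One label names the nucleus accumbens as tissue, and the source name is PFC.

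Here, UMIs were summed per library over Exc_1 cells. Of 26145 genes listed, 13 mitochondrial genes and 144 genes of ribosomal proteins were dropped. Libraries with at least 10 Exc_1 cells were tested with edgeR 4.0.16 (quasi-likelihood F test, filterByExpr, TMM) in R 4.3.3; calls had a Benjamini-Hochberg adjusted p under 0.05 and a fold above 1.5. DESeq2 1.42.0 served as an alternative. Cocaine contrasts shared 1 spread over 11 libraries. Shares and depth were compared by exact permutation (scipy 1.17.1); 95% intervals are Wilson or exact. Level ratios used a pseudocount of 1 CPM. Libraries pool 2 mice, P21 libraries may share animals, and p-values measure the spread between libraries. No new clustering or doublet call was made. Some genes are not reported here.

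Members and gene lists were chosen with earlier results of these data known. Genes named were the layer 2/3 list, the 12 highest and 8 lowest ratios to other clusters, the 10 largest rises and falls with age, the 5 largest each way in other comparisons, genes the study names, and up to 4 called members per list and direction. On simulated counts with known changes of 1 and 2 (log2), the age test recovered 50% and 83%, that of 48 h 33.5% and 80.5%, that of 15 days 47.5% and 90.5%, and that against near clusters 45.5% and 91.5%.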

Additional observations from a re-analysis of the deposited data

Results flagged for a closer look

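Within groups of 4 to 10 libraries, a library was picked out when its gap to the next one took up more of the group's range than Dixon's 95% limit allows. This held in 11 of 96 groups. The limit lets through about 1 in 20 for independent, normally distributed values. Most groups here were genes already called, and they share libraries, so the 11 cannot be set against that rate. Among the 5 P60 saline libraries, library 12 was far above the others for Cox5a (366 CPM against 78.6 to 156), Cyc1 (136 against 54.8 to 74.6), Uqcrfs1 (86.2 against 41.9 to 46.6) and Yeats4 (45.5 against 14.4 to 19.7). Over the 4 saline libraries of 48 h and 15 days the same library was again far above for Cyc1 (136) and Yeats4 (45.5). Library 5 stood above the other saline libraries for Nr4a1 (40.9 CPM against 23.3 to 27.7) and Snap25 (6477 against 6188 to 6266), and library 7 for Nrip3 (14.8 against 0 to 3.57). Among the 4 cocaine libraries of 48 h and 15 days, library 6 was highest for Nnat (73.6 CPM against 14.3 to 20.5), and among all 6 cocaine libraries it was lowest for the median percent of mitochondrial UMIs (2.1 against 2.92 to 3.24).

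The age change differed between Exc_1 and the mean of Exc_5, Exc_9 and Exc_2, by an edgeR test of that difference, for 117 genes. The differences of log2 changes were 4.04 for Pcp4l1, 3.72 for BC051226 (1 UMI in the P21 cells of Exc_1), 2.98 for Ctxn3, 2.28 for Sf3b4 and 2.20 for Ntf3 (neurotrophin 3), all more positive in Exc_1. They were -2.89 for Sox9, -2.75 for Nrp1 (neuropilin 1), -2.42 for Lsm11, -2.42 for Nrsn2 and -2.27 for Tmem91. BC051226, Sox9, Nrp1, Lsm11, Nrsn2 and Tmem91 had too few counts to enter the age test within Exc_1 alone. In the saline libraries, Exc_1 cells held 0 to 4 UMIs of Lsm11 and 0 to 6 of Tmem91 per library. Nrp1, a semaphorin receptor, stood at 31 and 5.72 CPM in P21 and saline Exc_1 cells and at 37.6 and 31.7 CPM in Exc_2. In Exc_5 it stood at 7.64 and 12.5 CPM and in Exc_9 at 14.5 and 12.7 CPM. Nrsn2, a neurensin, stood at 12.1 and 20.3 CPM in Exc_1, while it went from at most 7.97 to at least 36.2 CPM in the near clusters. Among list members, the difference was 1.88 for Penk, 0.69 for Lamp5, 0.63 for Hspa8, 0.90 for Ndufa9, 0.60 for Atp5c1, 0.64 for Tuba1a, 0.60 for Fez1 and 0.59 for Tubb3. It was -0.82 for Slc17a7, -1.07 for Syp, -0.63 for Syn2, -1.17 for Lsamp, -1.67 for Nptx2, -1.20 for Nr4a1, -1.89 for Pdyn and -1.95 for Gabrg3.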

How the results depend on the processing

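No paired analysis was possible because the labels number the libraries in 1 series without tying a saline library to a cocaine or P21 library. The 767 age calls became 462 with DESeq2, 372 with equal cell numbers, 153 with the 15 day saline libraries as the adult group and 46 with the summed level of the 76 genes of 15 days in non-excitatory cells as a covariate; leaving out a library gave 428 (P21 library 1) to 777. The 77 calls at 15 days became 12 (DESeq2), 120 (minimum of 30 cells), 2 (equal cells) and 0 (covariate), with 2 (without P60 library 11) to 145 (without library 12) on leaving out a library and 40 without library 9. The 4 calls at 48 h became 0 (DESeq2), 22 (30 cells), 0 (equal cells), 2 (mitochondrial and ribosomal genes kept), 2 (excitatory class only) and 2 (minimum of 8 cells), with 0 to 7 on leaving out a library. The 20 calls over both times became 1 (DESeq2), 36 (no filter), 54 (30 cells), 1 (equal cells) and 9 (8 cells, 3 time points), range 3 to 64. The difference of the times gave 2 (no filter) and 6 (30 cells), range 0 to 28, with 28 without library 12. The 117 calls against near clusters became 186 (no filter), 70 (30 cells), 46 (equal cells) and 230 (no fold threshold), range 30 to 142, and those for cocaine stayed at 0 (range 0 to 0). The 2662 maintenance differences became 6049 (no filter) and 1019 (equal cells), range 2578 to 3359, and a test with a shared spread called 0 (393 at an unadjusted p under 0.05), as did the minimum of 8 cells (384); 30 cells left no value. The 5 genes 1.5-fold above every cluster became 3 (saline only), 26 (P21) and 3 (30 cells).

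Leaving out a library moved the age difference in share over 1.86 to 3.10 percentage points and that of cocaine over -2.63 to -0.558. The cocaine difference in median UMIs (-50.7) ran from -447 to 346 and turned positive without 5 of the libraries (345.9, 97.1, 44.8, 278 and 127); that in genes (50.2) ran from -2.25 to 103 and was -31.5 with means. With the covariate, which did not overlap between the groups, the age changes of Bsg (0.16), Grin1 (0.30), Grm5 (0.018), Lrrc7 (0.25), Lphn1 (0.15) and Uqcrfs1 (0.10) and the 15 day changes of Nrgn (-0.063) and Cyc1 (-0.14) turned in sign, and 10 of 70 named age genes stayed called (Pcp4l1, Tnnt2, Gstt1, Ptgds, Marcksl1, Nnat, Hist1h2bc, Nr4a1, Hsp90aa1 and Snap25). Nnat was -0.060 with 8 cells over 3 time points. Ratios to other clusters crossed 1 in P21 libraries for Pcp4l1 (0.286), Pcdh11x (0.931), Shroom2 (0.823), Akap17b (0.94), Penk (0.577), Brd9 (1.25), Rexo2 (1.11), Znhit6 (1.6), Prdx4 (1.1) and Serpinb6a (1.22), with saline only for Akap17b (0.993), Znhit6 (1.11) and Prdx4 (1.04), and with 30 cells for Akap17b (0.953). The covariate, the 8-cell minimum, the shared-spread maintenance test, the summing of P21 libraries 2 and 3 (102 calls against near clusters) and the excitatory-class subset were chosen after seeing the data, and the cause of these shifts was not tested. For single genes and lists, 2015 of 2571 alternatives kept direction and call, 488 lost the call in the same direction, 45 moved and 23 turned. Depth limits what P60 libraries 1, 4 and 6 (10 to 13 cells) can show.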
